A study of Mus musculus with 12 samples.

Results

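Rbm3 and Cirbp, the mouse genes of the cold-inducible RNA-binding proteins, were followed by their symbols in the deposited expression table of whole adrenal glands. They are 2 of the 24421 genes in that table and 2 of the 14305 with a mean normalized count of at least 10. Both were singled out because their levels were low in Abcg1 cKO glands, so that their ratios between the groups are given as a description and carry no test. RNA came from 12 libraries of 2-month-old female mice of mixed sv129 and C57BL/6 background. There were 4 control, 4 Abca1 cKO and 4 Abcg1 cKO libraries. Both knockout groups carried a Cre recombinase at the aldosterone synthase gene Cyp11b2. Control mice had that Cre and no conditional allele according to the series' design, while by the methods a control littermate had either the Cre allele or 1 conditional allele, so that Cre in every control mouse is not certain. In Abcg1 cKO mice both Abcg1 alleles were conditional and Cre removed the third exon, and in Abca1 cKO mice both Abca1 alleles were conditional and Cre removed exons 46 and 47. Recombination is limited to steroidogenic cells of the cortex, while the glands, cleaned of adherent fat before extraction, also hold medulla, vessels, capsule and immune cells. The authors' table gives 1 mean for control and Abca1 cKO together (8 libraries) and 1 for Abcg1 cKO (4 libraries). Control cannot be told apart from Abca1 cKO in these means, and the spread between mice was not read: single libraries stand in the table under names that could not be matched to the labels, and the authors' own test results were not used. In a bulk sample, fewer cells of a type and less RNA per cell cannot be told apart either.

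RBM3 and CIRBP are small proteins with 1 RNA recognition motif and a tail rich in arginine and glycine. Mild cooling of mammalian cells raises both, and warming lowers them. Both bind messenger RNAs and act on translation and on the choice of polyadenylation sites, and CIRBP is known from mouse fibroblasts to bind transcripts of clock genes such as Clock. They are named cold-shock proteins, but they do not belong to the cold shock domain family, of which Ybx1 is a member. Their nearest relatives are RBMX, a splicing regulator encoded on the X chromosome, and its retrogenes Rbmxl1 and Rbmxl2.

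Rbm3 had a mean normalized count of 1822 in control and Abca1 cKO glands and of 880 in Abcg1 cKO glands, which is 48.3% of the combined level, 2.07-fold lower, or -1.05 as a log2 ratio with a pseudocount of 1. Cirbp had a mean of 1157 in control and Abca1 cKO glands and of 684 in Abcg1 cKO glands, 59.1% of the combined level, 1.69-fold lower, or -0.76 on the same scale. Both genes were therefore lower in the authors' Abcg1 cKO mean, Rbm3 by more than Cirbp. Rbm3 stood at 1.57 times the level of Cirbp in the combined glands and at 1.29 times in Abcg1 cKO glands, a difference of -0.29 between the log2 ratios. These are single pooled values, and whether they exceed the variation from mouse to mouse, or whether the genes varied together over the libraries, was not tested.

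**Figure D1:**
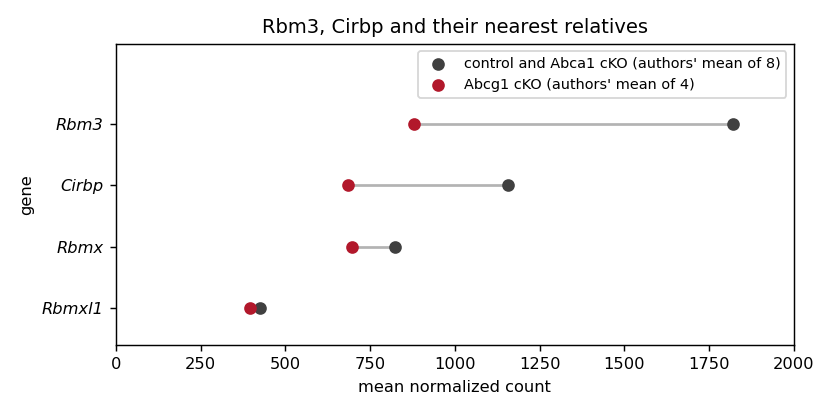
Mean normalized count (horizontal axis) of Rbm3, Cirbp, Rbmx and Rbmxl1, with 1 point for the authors' mean of the 8 control and Abca1 cKO libraries and 1 for that of the 4 Abcg1 cKO libraries; the spread between mice is not shown. The Rbm3 means lie at 1822 and 880 and the Cirbp means at 1157 and 684, while the Rbmx and Rbmxl1 means lie closer together.

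The coding sequences of both genes are alike but share no long identical run, which bears on whether reads could be assigned to the wrong gene. Their main coding transcripts had coding sequences of 462 and 516 bases, and 73.3% of 450 aligned bases were identical. The longest identical run was 11 bases, starting at coding base 196 of both. The stretch around that run, coding bases 166 to 236 in the GRCm38 annotation (GENCODE M21), is printed 5′ to 3′ with the shared run in capitals.
Rbm3: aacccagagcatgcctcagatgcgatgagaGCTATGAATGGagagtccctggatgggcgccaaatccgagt
Cirbp: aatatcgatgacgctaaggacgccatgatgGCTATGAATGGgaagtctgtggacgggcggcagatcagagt
No stretch of 50 bases was shared between Rbm3 and Cirbp transcripts, so that no exact match of that length could count for both genes. Of 2693 distinct stretches of 50 bases in Cirbp transcripts, 100% occurred in no other annotated gene. Of 5024 in Rbm3 transcripts, 90.3% occurred in no other gene, and 488 were shared. The processed pseudogenes Rbm3-ps and Gm10156 held 315 and 255 of them. The authors counted uniquely mapped reads, so fragments that lie wholly in such stretches could have been lost from Rbm3. The coding gene Phospho2, an annotated phosphatase gene that shares 88 of these stretches, had means of 782 and 750 and a log2 ratio of -0.06, whereas Rbm3 was at -1.05. Rbm3os, an antisense gene that overlaps Rbm3 by 452 bases, was listed with a mean of 6.13, and the libraries were made with a strand-specific kit.

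Rbm3 lies on chromosome X, at positions 8138975 to 8145880 on the minus strand of GRCm38, and Cirbp on chromosome 10, at 80165985 to 80172786 on the plus strand. Rbm3 had 11 annotated transcripts, of which 6 were coding and 2 were marked for nonsense-mediated decay. Cirbp had 7, of which 2 were coding, 1 was marked for decay and 4 kept an intron. In Rbm3, an exon of 271 bases at positions 8144175 to 8144445 of chromosome X was found in the 2 decay transcripts and in no coding transcript. In Cirbp, the decay transcript ended in exons of 99 and 150 bases that lay downstream of the main coding transcript and in no coding transcript. Inclusion of a decay exon of Rbm3 is known from mouse and human cells to depend on temperature, more of it at warmth. The deposited means sum all transcripts of a gene, so that the balance of coding and decay transcripts was not measured here.

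**Figure D2:**
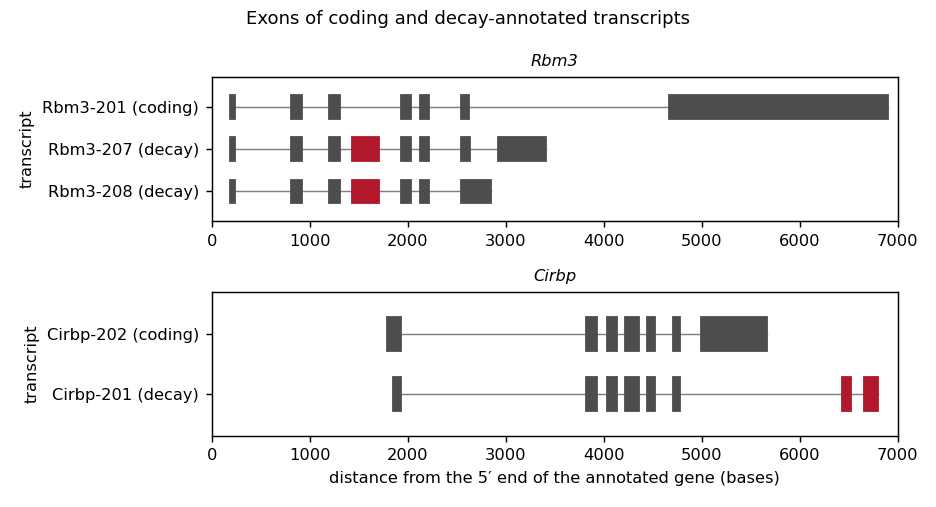
Exons (boxes) of the main coding transcript and of the decay-annotated transcripts of Rbm3 (upper panel) and Cirbp (lower panel), plotted to scale as distance in bases from the 5′ end of the annotated gene. Red boxes are exons found in decay-annotated transcripts and in no coding transcript, 1 of 271 bases in Rbm3 and 2 of 99 and 150 bases in Cirbp.

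Levels per length place both genes in the same range, with Cirbp above Rbm3 per kilobase of annotated exon and of main transcript. Per kilobase of all annotated exons (4698 bases in Rbm3 and 2604 in Cirbp), Rbm3 had 388 normalized counts in the combined glands and 187 in Abcg1 cKO glands, and Cirbp 444 and 263. Per kilobase of the main transcript, Rbm3 was at 653 and 315 and Cirbp at 876 and 518. The same whole-gene counts divided by coding length alone gave 3945 and 1904 for Rbm3 and 2243 and 1326 for Cirbp. Those counts include reads from untranslated bases, and only 462 of 2792 bases of the main Rbm3 transcript are coding, against 516 of 1321 in Cirbp. The order by coding length is therefore not one of levels. On the first of these scales Rbmx was at 190 and 161 and Rbmxl1 at 252 and 234, below both cold-inducible genes in the combined glands. In Abcg1 cKO glands the Rbm3 level per kilobase of annotated exon lay below that of Rbmxl1. The annotation used for these lengths is not the one the authors counted with, and this order was not set against the spread between mice.

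The promoter of Cirbp is shown because a mild-cold response element, an 8-base sequence described in the Cirbp promoter of mouse cells as bound by Sp1, can be looked for in it. The RefSeq promoter (GRCm38.p6, chr10:80167589-80167888, plus strand) runs from 250 bases before to 50 bases after the transcript start. The match to the element is in capitals.
Cirbp promoter: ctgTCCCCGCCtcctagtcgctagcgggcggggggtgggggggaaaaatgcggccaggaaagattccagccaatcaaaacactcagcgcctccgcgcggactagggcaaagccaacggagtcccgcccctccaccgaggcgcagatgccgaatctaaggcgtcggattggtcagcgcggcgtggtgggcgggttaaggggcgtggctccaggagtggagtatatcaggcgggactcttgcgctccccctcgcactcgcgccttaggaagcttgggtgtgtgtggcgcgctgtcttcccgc
The letters TCCCCGCC stood at bases 4 to 11, the first of them 247 bases upstream of the start. On either strand they were found in 5.38% of the 32851 promoters of the same length, so that a match is not rare, and it is a description of the sequence and not of use. The core of the heat shock element (GAANNTTC, found in 7.86% of the promoters) and the E-box (CACGTG, found in 7.15%) had no match in this window. The window had a GC content of 65.7%, against a median of 52.7% over all promoters. A second annotated start of Cirbp, with its window at chr10:80167921-80168220, had no match to any of these and a GC content of 70%. Among the relatives, the promoter of Rbmxl1 held 1 match to the mild-cold response element, on the reverse strand, 153 bases upstream of the start. The promoter of Rbm3 was not analysed here.

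How far both genes stood from the rest of the transcriptome was described from the same means. A gene was counted as higher or lower in Abcg1 cKO when its mean was at least 10 and its ratio passed 1.2, the fold cutoff of the study, with no test. By this rule 10.4% of the 14305 genes were higher, 12.2% were lower and 22.6% passed in either direction, and the median log2 ratio was 0.00. Since the genes were picked from this contrast, that both are among the lower 12.2% is given only as their place. Rbm3 had the 109th lowest log2 ratio of the 14305 genes and Cirbp the 275th. Low means scatter widely, so genes of like level were counted as well. Within a factor of 2 of the overall mean of Rbm3 (1508) lay 4185 genes, Rbm3 included. Of these, 2 had a log2 ratio at or below -1.05, Rbm3 being 1 of them, and the 5th and 95th percentiles were -0.20 and 0.29. Of 5010 genes within a factor of 2 of Cirbp (999.5), 11 were at or below -0.76, Cirbp and Rbm3 among them, with percentiles of -0.22 and 0.30.

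**Figure D3:**
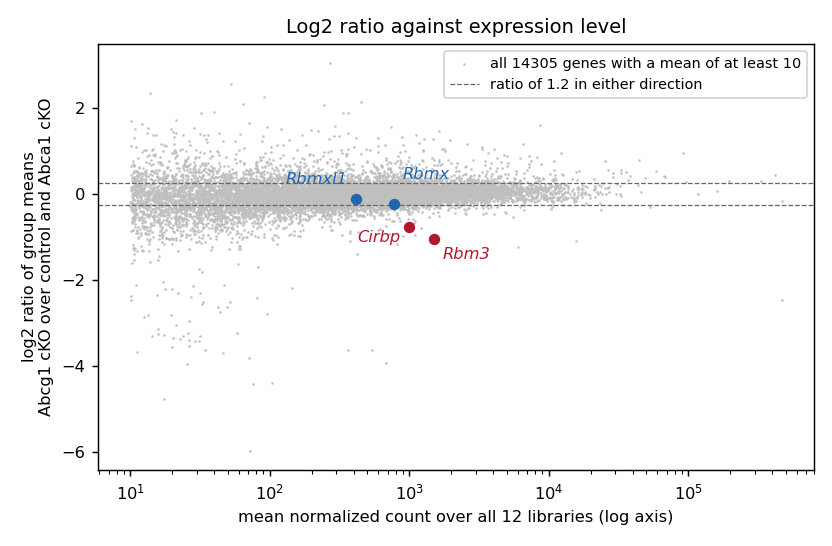
Log2 ratio of the Abcg1 cKO mean to the combined mean (vertical axis), against the mean normalized count over all 12 libraries (horizontal log axis) for the 14305 genes with a mean of at least 10; dashed lines mark a ratio of 1.2 in either direction. Rbm3 at -1.05 and Cirbp at -0.76 lie below most genes of like level, and Rbmx and Rbmxl1 lie between the lines.

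The genes nearest to each in log2 ratio, among those of like level, were listed as a description of what else was low by the same amount. Nearest to Rbm3 were Erdr1 (548.8 against 1080, -0.98), the glutathione transferase gene Mgst2 (673 against 1312, -0.96) and Mmp12, a metalloproteinase of macrophages (443 against 996, -1.17). They were followed by AW549542 (825 against 1420, -0.78) and by Cirbp itself, at a distance of 0.29. Nearest to Cirbp were AW549542, the formin gene Inf2 (471 against 782, -0.73), the Groucho co-repressor gene Tle2 (411 against 724, -0.82), Slfn9 (394 against 698, -0.82) and the hormone-responsive gene Greb1 (778 against 1239, -0.67). A like ratio between 2 means is a single number and says nothing of how these genes varied over the libraries.

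The closest relatives stood nearer to the combined level. Rbmx, the X-linked splicing regulator, had means of 822 in the combined and 697 in Abcg1 cKO glands (log2 ratio -0.24), and Rbmxl1, its retrogene, of 426 and 396 (-0.11). Both were below the combined mean, but by less than a ratio of 1.2, and Rbmxl2 was listed at 0 in both groups. Rbmx and Rbmxl1 were 90.9% identical over 1164 aligned coding bases, with identical runs of up to 67 bases, so that the split of reads between this pair is uncertain. Rbm3 was 72.3% identical to Rbmx and 73.6% to Rbmxl1, and Cirbp 68.7% and 69.2%.

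Genes that carry an Rbm number share an RNA-binding motif and little else, and most were close to the combined level. Of 32 in the table, 31 had a mean of at least 10, of which 1 was higher and 4 were lower, with a median log2 ratio of -0.02. Over all genes 10.4% were higher and 12.2% lower, so that the count of lower genes is near the background and not a result about this family. Leaving out Rbm3, 1 of 30 was higher and 3 were lower, and the median was again -0.02. The lower ones besides Rbm3 were Rbm24, a splicing factor of muscle (147 in combined and 107 in Abcg1 cKO glands, -0.46), Rbm33 (1195 and 941, -0.34) and Rbm46, a gene of germ cells with few counts here (24.5 and 11.3, -1.05). Rbm11 was higher (46.9 and 58.3, 0.31).

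The cold shock domain family, which has the fold of bacterial cold shock proteins in place of an RNA recognition motif, had 6 of 8 genes with a mean of at least 10, and Lin28a and Lin28b had fewer. None was higher and 1 was lower, where 10.4% and 12.2% of all genes were, and the median log2 ratio was 0.07. The lower gene was Csdc2, an RNA-binding protein described in brain (371 in combined and 280 in Abcg1 cKO glands, -0.40). The most abundant member, Ybx1, a packaging protein of messenger RNA, was at 7210 and 8405 (0.22), inside the ratio of 1.2.

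Factors that are known to act on Rbm3 and Cirbp splicing, or beside them, were set against all genes, 22.6% of which passed a ratio of 1.2. With lists this short, counts below that share are not a result about these factors. HNRNPH1 is known from human cells to hold back the decay exon of RBM3 in the cold, and Hnrnph1 had means of 5433 in the combined and 5250 in Abcg1 cKO glands, a log2 ratio of -0.05. Of 26 hnRNP genes, 1 was higher and 2 were lower, and the median was 0.00. Hnrnpc was the higher one (3913 and 5143, 0.39), and Hnrnpa1 (171 and 117, -0.54) and Ptbp2 (680 and 522, -0.38) were the lower ones. Hnrnpa1 has many near-identical pseudogenes, so its count of uniquely mapped reads is uncertain. The CLK kinases phosphorylate SR proteins in a temperature-dependent way in mammalian cells, and of 6 measured SR kinase genes 0 passed the ratio in either direction. Clk1 was at 3390 and 3088 (-0.13), Clk4 at 1271 and 1214 (-0.07) and Clk2, the farthest from 0, at 230 and 203 (-0.18). Of 13 SR protein genes 0 passed either, with a median of 0.02 and the farthest, Srsf11, at 2518 and 2142 (-0.23). Among 18 cleavage and polyadenylation factors, whose choice of sites RBM3 and CIRBP alter, 1 was lower, the nuclear poly(A)-binding protein gene Pabpn1 (2498 and 2065, -0.27), and the median was 0.01.

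**Figure D4:**
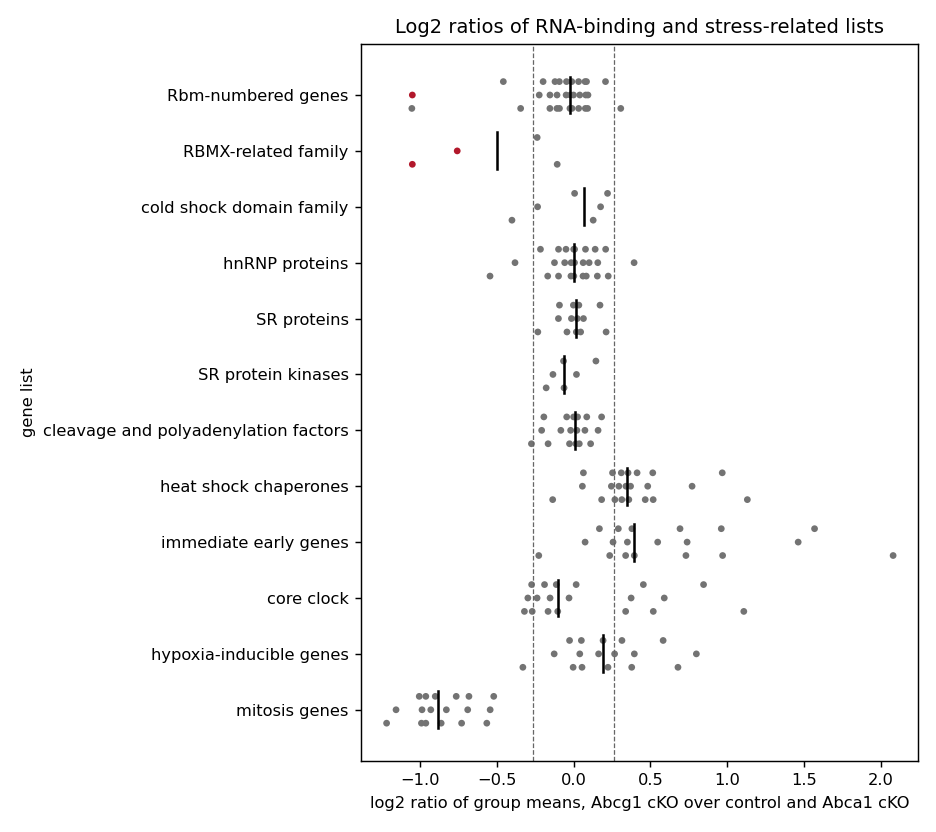
Log2 ratio of the Abcg1 cKO mean to the combined mean of each gene with a mean of at least 10 in 12 lists (rows; the height of a point within a row has no meaning). Red points are Rbm3 and Cirbp, black bars are list medians, dashed lines mark a ratio of 1.2. Lists of RNA-binding factors have medians near 0 except the RBMX-related family, which holds both genes, while heat shock and immediate early genes lie mostly to the right and mitosis genes to the left.

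Heat shock chaperones, which rise with warmth when RBM3 and CIRBP fall, were mostly higher in the Abcg1 cKO mean. Of 22 genes, 16 were higher and 0 lower, where 10.4% and 12.2% of all genes were. The median log2 ratio was 0.35, where the median of all genes was 0.00. The inducible HSP70 genes Hspa1b (429 in combined and 942 in Abcg1 cKO glands, 1.13) and Hspa1a (250.4 and 491, 0.97) had the largest ratios of the list, and because these copies are near-identical, their split is uncertain. Hsph1, an HSP110 nucleotide exchange factor, was at 2814 and 4807 (0.77), and the constitutive chaperone gene Hspa8 at 31491 and 45112 (0.52). The 22 genes also include transcription factor genes of the response, which are not chaperones. These were within the ratio of 1.2, Hsf1 at 643 and 672 (0.06) and Hsf2 at 396 and 361 (-0.14). Body or tissue temperature was not among the measurements, and any link between these chaperones and the means of Rbm3 and Cirbp was not tested.

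Clock genes were spread to both sides. Of 19, 7 were higher and 4 lower, where 10.4% and 12.2% of all genes were, and the median was -0.10. Clock itself, a bound transcript of CIRBP in mouse fibroblasts, had means of 1425 in the combined and 1442 in Abcg1 cKO glands (0.02). Nfil3, a repressor that acts against DBP (291 and 630, 1.11), Cry2 (1157 and 2082, 0.85), Per1 (1238 and 1864, 0.59) and Arntl, which encodes BMAL1 (122 and 175, 0.52), were higher. Per3 (1174 and 940, -0.32) was the lowest of the list, and Hlf, Rora and Cry1 were the other lower genes. The time of day at which glands were taken is not given for single libraries in the sources used here, so its part in these means was not tested.

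Genes induced by low oxygen were read because both RNA-binding proteins are known to rise in hypoxic human cells. Of 17 measured, 7 were higher and 1 lower, where 10.4% and 12.2% of all genes were, with a median of 0.19. Hexokinase gene Hk2 was at 682 in the combined and 1189 in Abcg1 cKO glands (0.80), the prolyl hydroxylase genes P4ha1 and P4ha2 at 1321 and 2117 (0.68) and at 561 and 738 (0.40), and Ddit4, an inhibitor of mTORC1, at 1077 and 1615 (0.58). Egln3, a HIF hydroxylase, was the lower gene (85.7 and 68.0, -0.33). Of 10 genes with a described link to RBM3 or CIRBP, 1 was higher, near the 10.4% over all genes, with a median of 0.03. That gene was Ntrk2, the TrkB receptor through which cooling raises RBM3 in mouse brain (244 and 434, 0.83). Rtn3, a reticulon whose translation RBM3 promotes in mouse neurons, was at 4244 and 4679 (0.14), and Hif1a at 1265 and 1204 (-0.07).

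Immediate early genes, which respond within minutes to stimuli of many kinds, were mostly higher. Of 19 measured, 14 were higher and 0 lower, where 10.4% and 12.2% of all genes were, and the median was 0.40. Fosb, a subunit of AP-1, was at 116 in the combined and 496 in Abcg1 cKO glands (2.08), the orphan receptor gene Nr4a2 at 445 and 1323 (1.57), Klf4 at 139 and 384 (1.46) and Junb at 2782 and 5454 (0.97). Mitosis genes went the other way. All 18 were lower, where 12.2% of all genes were, with a median of -0.88 and a range from -1.22 to -0.52. Rbm3 at -1.05 and Cirbp at -0.76 lay within that range. Since both were picked for low ratios, this is only a description. The mitosis genes were also much scarcer, with combined means from 47.6 (Plk1) to 443 (Mki67), against 1822 for Rbm3 and 1157 for Cirbp. Examples were the transcription factor gene Foxm1 (74.2 and 31.3, -1.22), the kinetochore gene Cenpf (139 and 61.8, -1.16), the spindle gene Nusap1 (109 and 53.9, -1.01) and cyclin B1, Ccnb1 (81.4 and 40.5, -0.99). RBM3 is known to aid passage through mitosis in human cell lines. The part of proliferating cells, or of the early response, in the means of Rbm3 and Cirbp was not tested.

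Means of cell type markers also differed, and they stand here beside both genes because the glands are mixtures. For all counts here, the share over all genes was 10.4% higher and 12.2% lower. Of 9 adipocyte markers 9 were higher, with a median of 1.14 and a summed mean of 20748 in the combined and 45955 in Abcg1 cKO glands. Lep (19.1 and 119, 2.58), Car3 (5138 and 15787, 1.62), Adipoq (1019 and 2818, 1.47) and Cidec (829 and 1885, 1.18) led them. Of 10 medulla markers 10 were higher, with a median of 0.42 and a sum of 160983 and 220285. They were led by the catecholamine enzymes Pnmt (4908 and 8747, 0.83) and Th (8765 and 14984, 0.77), and by Scg2 (29103 and 41012, 0.49) and Slc18a1 (1060 and 1479, 0.48). Of 10 cortex markers 7 were higher and 0 lower, with a median of 0.31 and a sum of 1.53e+06 and 1.80e+06. Among the higher were Akr1b7 (35862 and 61841, 0.79), Scarb1, the HDL receptor gene (20445 and 34944, 0.77), Star, the carrier of cholesterol into mitochondria (374521 and 507891, 0.44), and Fdx1 (13475 and 17300, 0.36). Within the ratio were Hsd3b1, the most abundant in the combined glands (482180 and 434588, -0.15), Nr5a1 (17232 and 18734, 0.12) and Mc2r (10012 and 9560, -0.07). These levels fit the labelled tissue.

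Other marker lists stayed near the combined level or below it. Over all genes 22.6% passed the ratio in either direction, so that 0 or 1 of so few markers is near the background. Of 5 zona glomerulosa markers 0 passed the ratio, with a median of 0.00, a sum of 20599 and 19074 and Dab2 the farthest from 0 (11308 and 9484, -0.25). Of 6 endothelial markers 0 passed, with a median of -0.06, a sum of 14202 and 13398 and Emcn the farthest (2680 and 2341, -0.20). Of 8 macrophage markers 1 was lower, Cd68 (665 and 539, -0.30), with a median of -0.03 and a sum of 17032 and 16513. Of 8 lymphocyte markers with a mean of at least 10, 6 were lower and 0 higher, with a median of -0.73 and a sum over all 10 listed genes of 590 and 468. Most of that sum was Ptprc, and the other 7 measured markers were scarce, Cd79a being at 21.6 and 9.09 (-1.16). The globin genes Hba-a1, Hba-a2, Hbb-bs and Hbb-bt were listed at 0 in both groups, and the erythroid gene Alas2 was at 258 and 224 (-0.20). Because only uniquely mapped reads were counted, the globin values are not read as absence of blood RNA. How much of these differences enters the means of Rbm3 and Cirbp was not tested.

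The targeted genes check the labels only in part, because 1 of the combined groups is itself a knockout and gene-level counts include the exons that Cre leaves in place. Abcg1 had a mean of 305 in control and Abca1 cKO glands and of 249.7 in Abcg1 cKO glands (-0.29), 81.8% of the combined level. Abca1 had 7791 and 10057 (0.37), where the combined mean includes the 4 Abca1 cKO libraries. Sums of the means over all genes were 18311615 in the combined and 18889571 in Abcg1 cKO glands, after the authors' scaling, and raw depths cannot be had from these means.

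Measured genes on either side of Rbm3 and Cirbp had ratios nearer to 0. Of 7 measured genes within 100 kb of Rbm3 on chromosome X, 1 was higher and 0 lower, with log2 ratios from -0.24 to 0.30 and a median of -0.02. The higher one was Ebp, an enzyme of cholesterol synthesis (1116 in combined and 1378 in Abcg1 cKO glands, 0.30). Of 10 genes within 100 kb of Cirbp on chromosome 10, 1 was higher and 0 lower, with log2 ratios from -0.21 to 0.45 and a median of 0.02. The higher one was Midn (1065 and 1459, 0.45). Over all genes 10.4% were higher and 12.2% lower, and 275 of 14305 were at or below -0.76, so that counts this small, and no neighbour as low as Cirbp, are near what the background gives and are not a result about either locus.

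**Figure D5:**
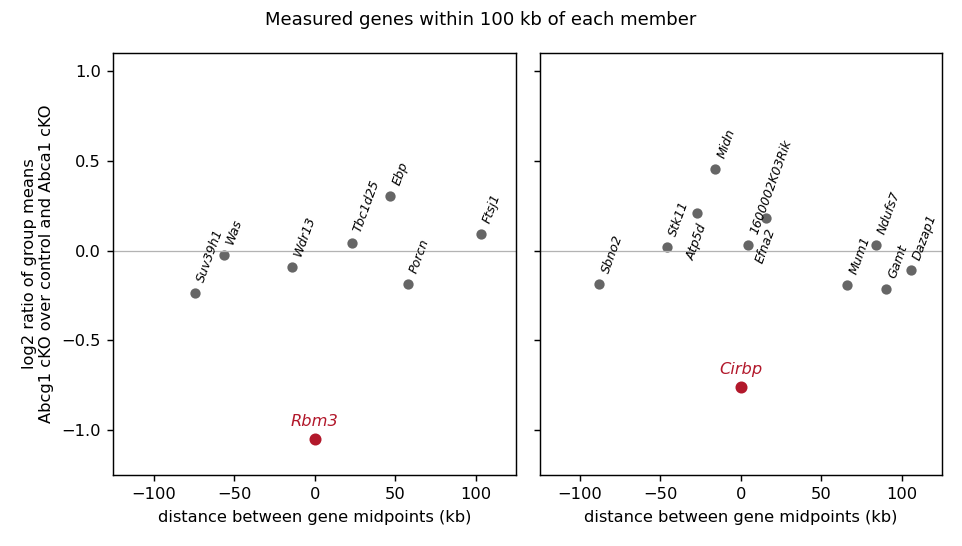
Log2 ratio of the Abcg1 cKO mean to the combined mean (vertical axis) of the genes with a mean of at least 10 within 100 kb of Rbm3 (left, 7 genes) and Cirbp (right, 10 genes), against the distance between gene midpoints in kb. Neighbours range from -0.24 to 0.30 around Rbm3 and from -0.21 to 0.45 around Cirbp, and the red points of Rbm3 and Cirbp lie at -1.05 and -0.76.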

How the data were processed

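Adrenal RNA of 4 control, 4 Abca1 cKO and 4 Abcg1 cKO mice was sequenced from polyA-selected, stranded libraries. Upstream tools, from the methods and the submitters' processing notes, were bcl2fastq 2.20.0.422 for demultiplexing, cutadapt 4.0 for adapters, FastQC 0.11.9 for quality and STAR 2.7.10a for mapping to mm10. The authors then took unique alignments into gene counts (HTSeq 0.13.5) and scaled these by size factors (DESeq2 1.38.3). NovaSeq and NextSeq instruments were both used, and the instrument of a given library is not stated in the sources read.

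Only pooled signal values of the deposited table were used, namely normalized counts that the authors averaged over all libraries, over control with Abca1 cKO, and over Abcg1 cKO. A further 12 columns hold libraries one by one, under column names not found among the sample labels, and 4 hold the authors' comparison (log2 fold change, its standard error, p-value and adjusted p-value). Neither kind was used. The design had assumed values per library, so no limma fit, no contrast of Abca1 cKO with control and no covariation over libraries was run, and pooled means were read without a test. Raw depth, and with it counting error, cannot be had from pooled means.

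Log2 ratios used a pseudocount of 1. Genes with a mean of at least 10 were counted as higher or lower past a ratio of 1.2. Scripts were tested on simulated data (Python 3.11.15, pandas 2.3.3, NumPy 2.4.6, Biopython 1.88, Matplotlib 3.10.9). Gene models came from GENCODE M21 on GRCm38 and promoters from RefSeq, with 1 of the 2 genes matched. Members and lists were chosen with earlier results of these data known. Named were Rbm3, Cirbp, their relatives, the targeted genes, the up to 5 genes of like level nearest to each in log2 ratio, and from each list up to 4 genes past the ratio with the largest absolute log2 ratio and a mean of at least 50, or the farthest gene where none passed. Others were named for their role or, where a count was small, after their values were seen. Alternatives were pseudocounts of 0.1 and 10, no filter, a mean of at least 50, a ratio of 1.5 and centring on the median ratio.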

Additional observations from a re-analysis of the deposited data

How the results depend on the processing

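The log2 ratio of Rbm3 stayed between -1.05 and -1.04 and that of Cirbp between -0.76 and -0.75 under pseudocounts of 0.1 and 10 and under centring on the median of all genes. No log2 ratio or median changed sign. The number of genes counted depended on the filter and the ratio. With no filter on low values, 2629 genes were higher and 3587 lower, where the filter at 10 gave 1493 and 1745. With a mean of at least 50, 1107 of 12284 genes were higher and 1034 lower, so that the lower genes no longer outnumbered the higher ones. With a ratio of 1.5, 370 genes were higher and 467 lower, and among the listed genes 29 were higher and 23 lower, where a ratio of 1.2 gave 73 and 39. Rbm3 and Cirbp passed the ratio of 1.5. At that ratio 3 heat shock chaperones, 8 immediate early genes, 3 clock genes and 2 hypoxia-inducible genes were higher. So were 2 of the 10 medulla markers (10 at a ratio of 1.2), 2 of the 10 cortex markers (7 at 1.2) and 8 adipocyte markers. Lower were 15 mitosis genes (18 at 1.2), 5 lymphocyte markers (6 at 1.2) and 2 Rbm-numbered genes, Rbm3 being 1 of them. These shifts follow from fewer or more genes passing. The lymphocyte markers rest on low means: with a mean of at least 50, 0 were lower. No paired analysis was possible because the columns of single libraries match no sample label. Fits that leave out a replicate, edgeR on recovered reads and limma were not run for the same reason.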

Other observations

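Genes of heat-producing fat were counted after the adipocyte markers had been seen, since fat around the mouse adrenal can be brown. Of 10 genes, 6 were higher and 1 lower in the Abcg1 cKO mean, where 10.4% and 12.2% of all genes were. Their median log2 ratio was 0.38. Ucp1, the uncoupling protein of brown fat, had means of 386 in control and Abca1 cKO and of 789 in Abcg1 cKO glands (1.03). Cidea, a lipid droplet gene, was at 181 and 440 (1.28), Dio2, which activates thyroid hormone, at 38.7 and 91.9 (1.23), and Adrb3, the receptor that starts heat production, at 134 and 241 (0.85). Elovl3, a gene that rises in brown fat in the cold, was at 29.0 and 20.7 (-0.47). Glands were cleaned of fat before extraction, and the part of fat tissue in the means of Rbm3 and Cirbp was not tested.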
